A study of Mus musculus with 6 samples.

Results

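The interleukin-1 family was described here through 10 genes chosen by name, of 24786 gene symbols with a value. They were the cytokine genes *Il1a*, *Il1b*, *Il1f9* and *Il33*, the receptor antagonist gene *Il1rn*, the binding protein gene *Il18bp*, and the receptor genes *Il1r1*, *Il1r2*, *Il1rap* and *Il1rl1*. Messenger RNA was sequenced from Raw264.7 cells, a mouse macrophage line raised from a tumor induced by Abelson leukemia virus. The labels give its strain as C57BL/6, although the line is usually described as BALB/c derived. Cells were infected with lentivirus that carried either a control hairpin (sh-NC) or one targeting *Etv5* (sh-*Etv5*), with 3 libraries in each group, and no inflammatory stimulus is named for either group. The labels place the measurement at 24 or 48 hours after infection, without saying which. The methods, however, describe puromycin selection of infected cells during passage, and the paper calls the sequenced cells stably transfected. These accounts differ, so the time from infection to sequencing is uncertain. The sources used here do not tie the libraries to a particular hairpin or to independent infections, so n counts libraries of a single line, and p-values measure only the spread between libraries, which may be technical.

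IL-1α and IL-1β are agonists that bind the receptor IL-1R1, which then recruits the accessory protein encoded by *Il1rap* and signals through MyD88 and IRAK kinases to NF-κB. The family carries its own brakes: IL-1Ra, encoded by *Il1rn*, occupies IL-1R1 without signaling, and IL-1R2 is a decoy that binds the agonists but has no signaling domain. IL-33 uses ST2, encoded by *Il1rl1*, with the same accessory protein, IL-36γ, encoded by *Il1f9*, uses a receptor encoded by *Il1rl2*, and the product of *Il18bp* captures IL-18. Macrophages are a major source of IL-1β and of IL-1Ra once they are activated.

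Values were RPKM (read coverage corrected for gene length and for the mapped total of a library), so that levels of different genes can be set side by side. RPKM summed to between 320462 and 322949 in the sh-NC libraries and between 330454 and 340257 in the sh-*Etv5* libraries, and the number of reads is unknown. *Etv5* itself was at 9.18, 9.89 and 9.39 RPKM in sh-NC and at 5.19, 4.91 and 5.28 RPKM in sh-*Etv5* libraries. Of 10 macrophage markers, 9 reached a mean of 1 RPKM in a group, and their sum was 4457 to 4584 RPKM in sh-NC and 3552 to 3673 RPKM in sh-*Etv5* libraries. This sum was mostly *Lyz2* (mean 2834 and 2041 RPKM). Of the 9 markers tested, 4 were higher, namely *Itgam* (33.8 and 127 RPKM), *Adgre1* (2.60 and 11.3 RPKM), *Cd14* (628 and 745 RPKM) and *Spi1* (163 and 181 RPKM). The 4 that were lower were *Lyz2*, *Csf1r* (428 and 244 RPKM), *Cd68* (365 and 246 RPKM) and *Fcgr1* (46.5 and 31.3 RPKM). Mast cell and epithelial lists summed to at most 0.0751 RPKM in any library. The dendritic cell list went from 0.725 to 1.05 RPKM in sh-NC to 0.340 to 0.420 RPKM in sh-*Etv5*, and the fibroblast and endothelial list from 0.183 to 0.387 RPKM to 1.26 to 1.36 RPKM, mostly from *Pecam1* and *Cdh5* and with *Col1a2* at 0 throughout. The lymphocyte list summed to at most 1.61 RPKM, mostly from *Gata3*, which had a mean of 0.189 RPKM in sh-NC and 1.03 RPKM in sh-*Etv5* libraries. The neutrophil list rose from 0.289 to 0.671 RPKM in sh-NC to 15.6 to 19.9 RPKM in sh-*Etv5* libraries, almost entirely through *S100a8* (mean 0.306 and 17.1 RPKM), while the defining markers *Ly6g*, *S100a9*, *Retnlg* and *Cxcr2* were listed at 0 in all 6 libraries. The part of these marker differences in the results below was not tested.

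Expression was compared with limma on log2(RPKM + 1) for the 10738 genes with at least 1 RPKM in at least 3 libraries, and a Benjamini-Hochberg adjusted p-value under 0.05 was called. Of the 10 members, 5 passed this filter, namely *Il1b*, *Il1f9*, *Il1rn*, *Il1rap* and *Il1rl1*. Of these, 3 were higher and 1 was lower in sh-*Etv5* cells, and *Il1rap* was not called. Among all tested genes 74.3% were called, 33.3% as higher and 41.0% as lower, so a call by itself does not set a member apart. *Il1b* and *Il1f9* passed only through the sh-*Etv5* libraries and therefore had to differ. Without any 1 of the sh-*Etv5* libraries they no longer reached the filter, and 2 members were called. With no filter, 4 members were higher, 1 was lower and 5 were not called, against 47.8% of 17831 genes called, 23.3% as higher and 24.5% as lower. *Il1a*, *Il1b*, *Il1f9* and *Il1rn* had sh-*Etv5* libraries that were all above the sh-NC libraries, and *Il1rl1* had the reverse. Groups did not overlap for 76.4% of the tested genes (34.3% higher and 42.1% lower in sh-*Etv5*) and for 55.3% of the 17831 genes.

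**Figure D1:**
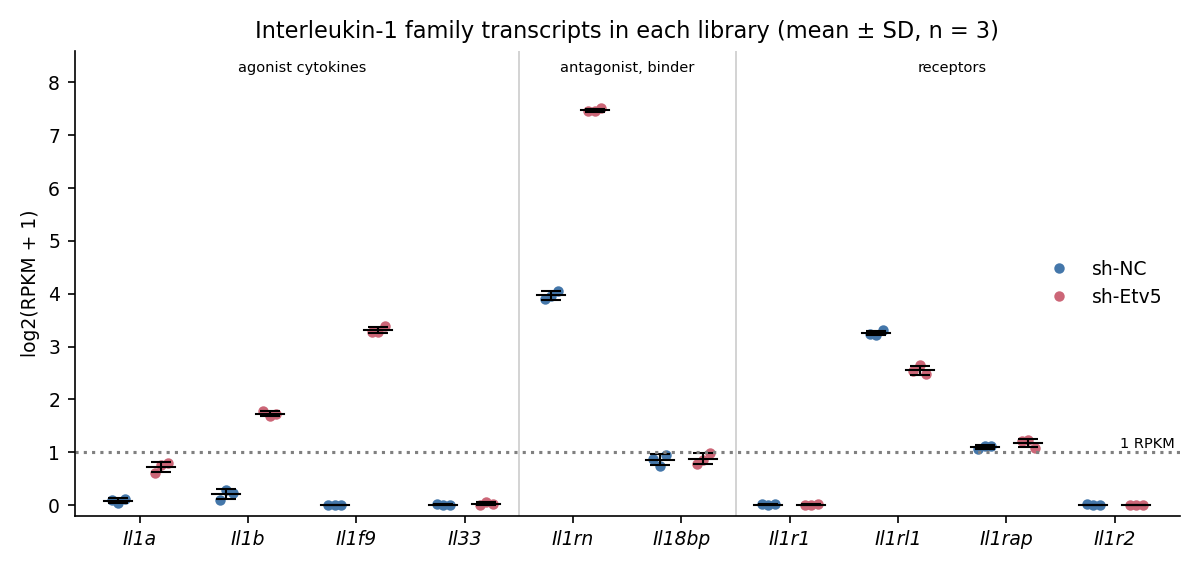
Level of each member on the log2(RPKM + 1) scale in the 3 sh-NC (blue) and 3 sh-Etv5 (red) libraries. Points are libraries, bars are the mean ± SD, and the dotted line marks 1 RPKM. *Il1rn* stands above every other member in both groups, *Il1f9* appears only in sh-Etv5 libraries, and *Il1rl1* is the one member with lower sh-Etv5 libraries that do not overlap sh-NC.

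The most abundant member in both groups was *Il1rn*, which encodes the antagonist IL-1Ra. It was at 13.9, 14.6 and 15.6 RPKM in sh-NC libraries, against 176, 174 and 181 RPKM in sh-*Etv5* libraries. Every sh-*Etv5* library was thus far above every sh-NC library, and the libraries within a group lay close together. The mean rose 12.1-fold, from 14.7 ± 0.878 to 177 ± 3.53 RPKM (SD, n = 3), and the log2 fold change was 3.51 (standard error, SE, 0.0443, adjusted p = 1.94e-13 by limma). Only 0.317% of the tested genes had a larger log2 fold change on this RPKM + 1 scale, which compresses the changes of low transcripts. Its mean was above 82.8% of all gene symbols in sh-NC cells and above 99.0% in sh-*Etv5* cells. In these bulk libraries, more cells that express a gene and more RNA per cell cannot be told apart.

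*Il1b*, which encodes the agonist released by activated macrophages, remained a low transcript in both groups. It was at 0.0719, 0.215 and 0.170 RPKM in sh-NC libraries, against 2.44, 2.21 and 2.30 RPKM in sh-*Etv5* libraries. All 3 sh-*Etv5* libraries were above 2 RPKM and all 3 sh-NC libraries were below the filter of 1 RPKM. The means were 0.152 ± 0.0733 and 2.31 ± 0.112 RPKM (SD, n = 3), a 15.2-fold difference. *Il1b* passed the filter only through the sh-*Etv5* libraries and therefore had to differ. Its log2 fold change of 1.53 on the RPKM + 1 scale (SE 0.0860) is given as a description. With no filter its limma adjusted p-value was 1.86e-05. *Il1a*, which encodes the agonist that also acts as an alarmin, stayed below 1 RPKM throughout. It was at 0.0651, 0.0269 and 0.0887 RPKM in sh-NC libraries, against 0.531, 0.692 and 0.727 RPKM in sh-*Etv5* libraries. The groups of *Il1a* did not overlap, and without the filter its log2 fold change was 0.64 (SE 0.0524, adjusted p = 0.000266 by limma). The ratio of the means of *Il1a* was 10.8.

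On the linear scale the 3 ratios were 12.1 for *Il1rn*, 15.2 for *Il1b* and 10.8 for *Il1a*. The log2 fold changes ran from 0.64 to 3.51 because the pseudocount of 1 compresses low values. The ratios of *Il1b* and *Il1a* rest on low and spread sh-NC values, 0.0719 to 0.215 RPKM and 0.0269 to 0.0887 RPKM. They are therefore imprecise, and whether the 3 genes rose to the same degree was not tested. With a pseudocount of 0.01 the log2 fold changes were 3.59 for *Il1rn*, 3.96 for *Il1b* and 3.33 for *Il1a*. In absolute terms the differences were far apart, at 163 RPKM for *Il1rn*, 2.16 RPKM for *Il1b* and 0.590 RPKM for *Il1a*.

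*Il1f9*, which encodes the cytokine IL-36γ, was listed at 0 RPKM in every sh-NC library. In sh-*Etv5* libraries it was at 8.66, 8.72 and 9.48 RPKM, with a mean of 8.95 ± 0.457 RPKM (SD, n = 3). It was therefore the second most abundant member in sh-*Etv5* cells, above *Il1b* and *Il1rl1*, while it was not detected in sh-NC cells. As *Il1f9* passed the filter only through the sh-*Etv5* libraries and had to differ, its log2 fold change of 3.31 (SE 0.0714) is given as a description. With no filter its limma adjusted p-value was 1.525e-06, and no ratio was computed against a control value of 0. *Il33*, which encodes an alarmin of barrier tissues, did not share this pattern. Its highest value was 0.0349 RPKM, it was listed at 0 in 2 sh-NC libraries and 1 sh-*Etv5* library, and the groups overlapped (log2 fold change 0.02 without the filter, 95% confidence interval -0.02 to 0.06, limma adjusted p = 0.426).

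**Figure D2:**
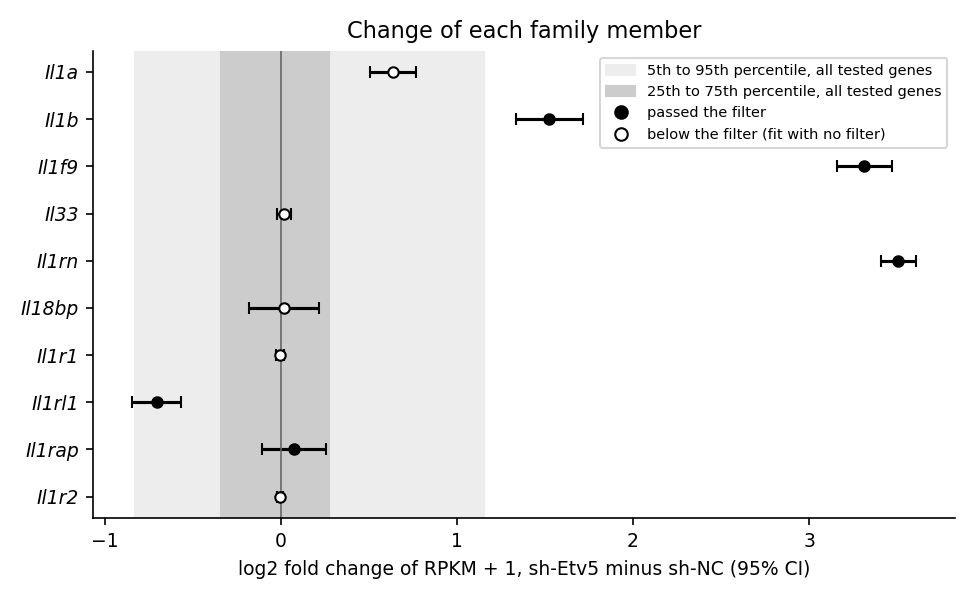
Log2 fold change of RPKM + 1 (sh-Etv5 minus sh-NC) with its 95% confidence interval from limma for each member. Filled points passed the filter and open points come from the fit without it, and the shaded bands span the 5th to 95th (-0.83 to 1.16) and the 25th to 75th (-0.34 to 0.28) percentiles of all 10738 tested genes. *Il1rn*, *Il1f9* and *Il1b* lie to the right of the wider band, and *Il1rl1* lies inside its left edge.

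The promoters of *Il1rn*, *Il1f9*, *Il1b*, *Il1a* and *Il1rl1* are shown because these were the members whose groups did not overlap. Sequences are from RefSeq on GRCm38.p6, run 5′ to 3′ along the gene, and cover 250 bases before and 50 bases after an annotated start. Capitals mark matches to 4 motifs searched on both strands, ETS (CCGGAA), κB (GGG, any 3 bases, then TTCC), AP-1 (TGANTCA) and C/EBP (TTGCNNAA). Of 32851 such windows of all genes, 14.9% hold the ETS motif, 5.56% the κB motif, 7.81% the AP-1 motif and 10.8% the C/EBP motif. *Il1rn* has 3 annotated starts, and the windows of the first (chr2:24336610-24336909, plus strand) and the last (chr2:24345121-24345420, plus strand) are given. The others are *Il1f9* (chr2:24186226-24186525, plus strand), *Il1b* (chr2:129371090-129371389, minus strand), *Il1a* (chr2:129309923-129310222, minus strand) and the first of the 2 starts of *Il1rl1* (chr1:40429320-40429619, plus strand).
Il1rn first start: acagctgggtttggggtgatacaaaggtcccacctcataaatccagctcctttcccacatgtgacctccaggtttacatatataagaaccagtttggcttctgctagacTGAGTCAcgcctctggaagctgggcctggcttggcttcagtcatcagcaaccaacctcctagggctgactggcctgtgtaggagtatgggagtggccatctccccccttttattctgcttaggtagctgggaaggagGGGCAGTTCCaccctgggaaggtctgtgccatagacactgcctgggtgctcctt
Il1rn last start: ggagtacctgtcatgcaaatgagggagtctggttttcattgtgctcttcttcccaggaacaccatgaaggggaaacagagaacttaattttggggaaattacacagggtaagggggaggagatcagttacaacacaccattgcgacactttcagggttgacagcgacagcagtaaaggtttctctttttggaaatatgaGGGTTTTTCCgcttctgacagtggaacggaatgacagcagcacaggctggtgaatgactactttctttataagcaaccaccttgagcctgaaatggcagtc
Il1f9: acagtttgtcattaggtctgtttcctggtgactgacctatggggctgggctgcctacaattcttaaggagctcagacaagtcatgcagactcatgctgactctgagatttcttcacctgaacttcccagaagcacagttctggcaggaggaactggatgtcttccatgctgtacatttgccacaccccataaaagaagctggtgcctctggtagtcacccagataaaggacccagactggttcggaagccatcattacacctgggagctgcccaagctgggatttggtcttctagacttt
Il1b: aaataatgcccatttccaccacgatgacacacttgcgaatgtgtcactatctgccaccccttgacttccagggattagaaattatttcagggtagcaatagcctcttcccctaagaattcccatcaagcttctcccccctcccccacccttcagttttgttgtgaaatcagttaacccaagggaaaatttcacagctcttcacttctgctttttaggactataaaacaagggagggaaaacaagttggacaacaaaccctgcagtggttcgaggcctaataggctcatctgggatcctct
Il1a: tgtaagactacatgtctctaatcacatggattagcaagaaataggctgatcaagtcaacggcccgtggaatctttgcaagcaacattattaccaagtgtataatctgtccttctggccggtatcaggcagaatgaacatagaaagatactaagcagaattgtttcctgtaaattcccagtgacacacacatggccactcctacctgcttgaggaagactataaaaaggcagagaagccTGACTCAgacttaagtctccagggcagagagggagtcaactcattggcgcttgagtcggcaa
Il1rl1 first start: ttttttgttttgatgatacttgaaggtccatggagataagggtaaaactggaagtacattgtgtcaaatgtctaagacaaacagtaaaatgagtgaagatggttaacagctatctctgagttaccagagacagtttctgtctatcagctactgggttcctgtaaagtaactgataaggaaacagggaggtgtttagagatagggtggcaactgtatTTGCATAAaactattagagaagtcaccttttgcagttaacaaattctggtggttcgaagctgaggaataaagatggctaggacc

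Both *Il1rn* windows hold a κB match, at positions -4 to 6 of the first start and -51 to -42 of the last, counted from the start site as base 1 with no base 0. The first *Il1rn* window also holds an AP-1 match at -141 to -135, and *Il1a* holds one at -12 to -6, next to its start site. The window of the first *Il1rl1* start holds a C/EBP match at -34 to -27. That of its second start (chr1:40439379-40439678), not printed here, holds no match to any of the 4 motifs, and which start is used was not tested. No match to these 4 motifs was found in the *Il1b* and *Il1f9* windows, and the ETS motif was found in none of the 15 windows of the 10 members. A match in these letters does not show that a factor binds there.

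*Il1rn* message outweighed that of the IL-1 agonist genes *Il1a* and *Il1b* in all 6 libraries. *Il1rn* made up 98.4% to 98.9% of the summed RPKM of *Il1a*, *Il1b*, *Il1rn*, *Il1f9* and *Il33* in sh-NC libraries and 93.5% to 93.8% in sh-*Etv5* libraries, where *Il1f9* made up a further 4.62% to 4.89%. The ratio of *Il1rn* to *Il1b* was 193, 67.9 and 92.0 in the sh-NC libraries. In the sh-*Etv5* libraries it was 72.2, 78.8 and 79.0. These groups overlapped, and the sh-NC ratio was spread by the low *Il1b* values of its libraries, so a change in this ratio was not detectable (difference in log2 ratio -0.47, two-sided exact permutation test p = 0.4, where 0.1 is the smallest value that 3 against 3 libraries allow). The direction of this difference was not stable, since it was 0.28 with 0.1 RPKM added to both genes. The ratio of *Il1rn* to the sum of *Il1a* and *Il1b* was 101, 60.38 and 60.42 in sh-NC libraries. In sh-*Etv5* libraries it was 59.31, 60.04 and 59.95, so these groups did not overlap, by a narrow margin apart from sh-NC replicate 1. The ratio of *Il1a* to *Il1b* was 0.905, 0.125 and 0.523 in sh-NC libraries and 0.218, 0.313 and 0.317 in sh-*Etv5* libraries. It too overlapped (difference in log2 ratio -0.48, two-sided exact permutation test p = 0.7), and its sign rested on sh-NC replicate 1, without which the difference was 0.12.

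**Figure D3:**
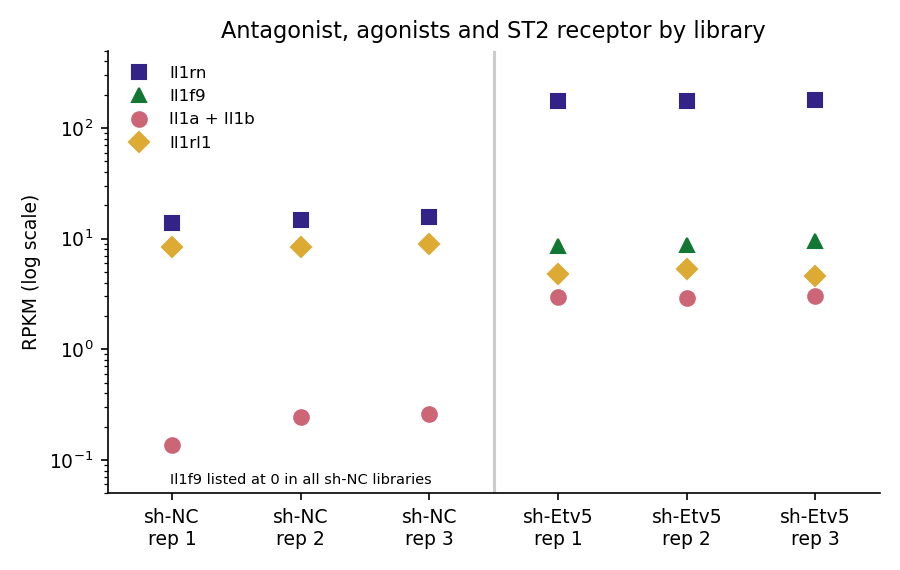
RPKM on a log axis of *Il1rn* (squares), *Il1f9* (triangles), *Il1a* plus *Il1b* (circles) and *Il1rl1* (diamonds) in each of the 6 libraries. *Il1rn* and the summed agonists rise together between the groups, *Il1f9* has points only in sh-Etv5 libraries because it is listed at 0 in sh-NC, and *Il1rl1* steps down from 8.37 to 8.89 RPKM in sh-NC to 4.57 to 5.28 RPKM in sh-Etv5.

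Among the receptors, *Il1rl1*, which encodes the IL-33 receptor ST2 and a soluble form of it, was the only member that fell. It was at 8.44, 8.37 and 8.89 RPKM in sh-NC libraries, against 4.79, 5.28 and 4.57 RPKM in sh-*Etv5* libraries. The lowest sh-NC library was well above the highest sh-*Etv5* library. The mean decreased by 43.0%, from 8.56 ± 0.281 to 4.88 ± 0.361 RPKM (SD, n = 3), and the log2 fold change was -0.70 (SE 0.0625, adjusted p = 1.44e-06 by limma). Of the tested genes, 92.3% had a log2 fold change above that of *Il1rl1*. Gene-level values do not separate the membrane from the soluble form of ST2, nor the secreted from the intracellular forms of IL-1Ra.

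*Il1rap*, the accessory chain shared by the receptors for IL-1, IL-33 and IL-36, was present at a low level in both groups. It was at 1.09, 1.17 and 1.17 RPKM in sh-NC libraries, against 1.31, 1.35 and 1.11 RPKM in sh-*Etv5* libraries. The groups overlapped, and a difference was not detectable (log2 fold change 0.08, 95% confidence interval -0.10 to 0.26, limma adjusted p = 0.418), with the sign turning to -0.07 under quantile normalization. The ratio of *Il1rl1* to *Il1rap* was 7.15 to 7.78 in sh-NC libraries and 3.65 to 4.10 in sh-*Etv5* libraries.

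The IL-1 receptors themselves were at the bottom of the range. *Il1r1*, the signaling receptor for IL-1α and IL-1β, had a highest value of 0.0107 RPKM and was listed at 0 in 1 sh-NC and 2 sh-*Etv5* libraries. *Il1r2*, the decoy, had a value of 0.00854 RPKM in sh-NC replicate 1 and was listed at 0 in the other 5 libraries. Neither gene allows a comparison at these values, and the limma adjusted p-values without the filter were 0.718 for *Il1r1* and 0.646 for *Il1r2*. *Il18bp*, which encodes the IL-18 trap, was just under the filter at 0.834, 0.678 and 0.932 RPKM in sh-NC and at 0.720, 0.807 and 0.989 RPKM in sh-*Etv5* libraries. The groups of *Il18bp* overlapped (log2 fold change 0.02 without the filter, 95% confidence interval -0.18 to 0.21, limma adjusted p = 0.877), and its sign was not stable, at -0.12 under quantile normalization and -0.0094 with libraries rescaled to the same sum.

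Ordered by mean RPKM, the sh-NC libraries ran from *Il1rn* through *Il1rl1*, *Il1rap* and *Il18bp* to *Il1b* and *Il1a*, with *Il1r1*, *Il33*, *Il1r2* and *Il1f9* at or near 0. In sh-*Etv5* libraries the order was *Il1rn*, *Il1f9*, *Il1rl1*, *Il1b*, *Il1rap*, *Il18bp* and *Il1a*, then *Il33*, *Il1r1* and *Il1r2*. The ranges of neighbours in this order overlapped for *Il1b* and *Il1a* in sh-NC libraries, for *Il18bp* and *Il1a* in sh-*Etv5* libraries, and among the genes at or near 0. The tested genes whose values over the 6 libraries were nearest to those of *Il1rn* were *Atf3*, *Ddit3* and *Slc15a3*, with root mean square differences of 0.44, 0.54 and 0.56 on the log2(RPKM + 1) scale. *Atf3*, which encodes a stress-induced transcription factor, went from 12.0 ± 0.415 to 119.5 ± 2.69 RPKM (SD, n = 3).

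The members lie at 3 separate groups of loci and at 3 single loci on GRCm38 (GENCODE release M21). On chromosome 2, *Il1f9* (24186476 to 24193568, plus strand) and *Il1rn* (24336853 to 24351494, plus strand) are 143 kb apart, while *Il1a* (129299610 to 129309972, minus strand) and *Il1b* (129364570 to 129371139, minus strand) lie 105 Mb further on. *Il1r2* (40074079 to 40125231), *Il1r1* (40225080 to 40317257) and *Il1rl1* (40429570 to 40465415) follow one another on the plus strand of chromosome 1. *Il1rap* is on chromosome 16 (26581704 to 26730117, plus strand), *Il33* on chromosome 19 (29925114 to 29960718, plus strand) and *Il18bp* on chromosome 7 (102014885 to 102018690, minus strand). Exons of *Il1a* share 222 of 1974 bases with *Gm14023* on the opposite strand, and exons of *Il1b* share 25 of 1907 bases with *Il1bos*. The sources used here do not give a strand setting, so reads there cannot be told apart, and *Gm14023* and *Il1bos* were at most 0.335 and 0.154 RPKM. Of the 50-base sequences of *Il1f9*, 8.68% also occur in transcripts of other genes, against 0.144% for *Il1rn* and 0% for *Il1b*.

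Around *Il1f9* and *Il1rn*, the genes of the family differed in level. *Il1f6*, which encodes the cytokine IL-36α and lies between them, was at 0, 0.0546 and 0 RPKM in sh-NC libraries, against 6.86, 5.87 and 6.17 RPKM in sh-*Etv5* libraries. Like *Il1f9*, it passed the filter only through the sh-*Etv5* libraries and therefore had to differ, and its log2 fold change of 2.84 is given as a description. The genes of both IL-36α and IL-36γ were thus at or near 0 in sh-NC and above 5 RPKM in sh-*Etv5* libraries. *Il1f8*, which encodes IL-36β, and *Il1f10* were listed at 0 in all 6 libraries, and *Il1f5*, which encodes the IL-36 receptor antagonist, did not exceed 0.0747 RPKM. *Psd4*, which lies 30.7 kb downstream of the *Il1rn* start and is no cytokine gene, rose from 2.65 ± 0.129 to 5.84 ± 0.0793 RPKM (SD, n = 3, log2 fold change 0.91, limma adjusted p = 1.62e-07). *Il1rl2*, the receptor gene for these IL-36 cytokines, was listed at 0 in all 6 libraries.

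Around *Il1a* and *Il1b*, the 4 tested neighbours went both ways. *Slc20a1*, a phosphate transporter gene, rose (log2 fold change 1.16), and *Ckap2l*, a mitotic spindle gene, *Polr1b* and *Chchd5* fell (-1.13, -0.32 and -0.25). Around the receptor genes on chromosome 1, *Il18rap*, which encodes the accessory chain of the IL-18 receptor, fell together with *Il1rl1*. It was at 11.2, 10.2 and 10.9 RPKM in sh-NC libraries, against 4.51, 4.45 and 4.63 RPKM in sh-*Etv5* libraries, with a log2 fold change of -1.09 (SE 0.0558, adjusted p = 1.53e-08 by limma). Its partner *Il18r1* did not exceed 0.0725 RPKM, and the flanking genes *Slc9a4* and *Map4k4* rose (0.60 and 0.46).

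**Figure D4:**
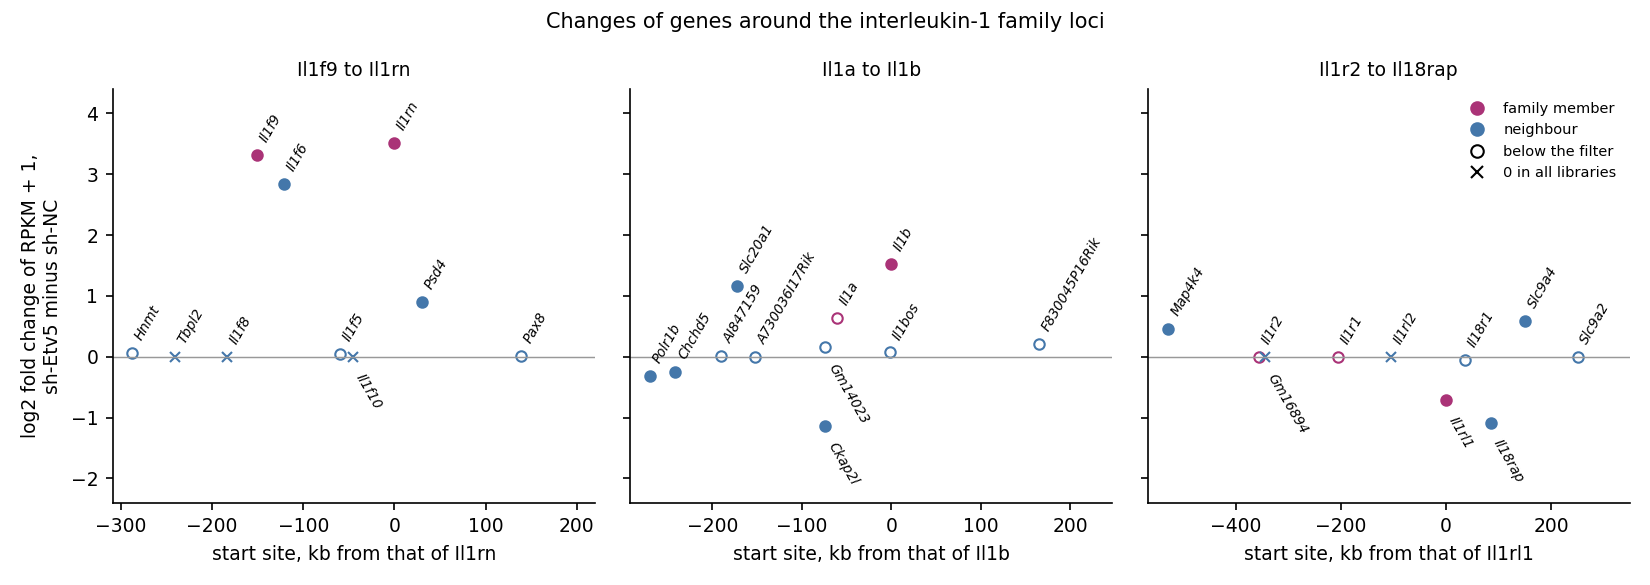
Log2 fold change of RPKM + 1 (sh-Etv5 minus sh-NC) of each gene in 3 windows around family loci, against the distance of its start site in kb from that of *Il1rn*, *Il1b* or *Il1rl1*. Purple marks members and blue marks neighbours, open circles are below the filter, and crosses are genes listed at 0 in all libraries. *Il1f9*, *Il1f6* and *Il1rn* rose, with *Il1f8*, *Il1f5* and *Il1f10* at the zero line beside them.

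The remaining relatives were read from a list of 15 symbols, of which 11 were in the table and 4 were tested. *Il1f6* was higher, *Il18rap* and *Sigirr* were lower, and *Il18* was not called, against 74.3% of all tested genes called, 33.3% as higher and 41.0% as lower. The call of *Il1f6* followed from the filter, and so few tested genes do not set this list apart from that background. The median log2 fold change was -0.25 over these 4 genes, *Il1f6* included, and -0.05 over all tested genes. *Sigirr*, an inhibitory receptor of the family, went from 6.41 ± 0.850 to 5.02 ± 0.799 RPKM (SD, n = 3), and its groups overlapped (log2 fold change -0.30, limma adjusted p = 0.0204). This call was lost without sh-NC replicate 2 (adjusted p = 0.0864 by limma), without sh-*Etv5* replicate 2 (0.0837) or replicate 3 (0.0570), and with no filter (0.108). Without any 1 of the sh-*Etv5* libraries *Il1f6* fell below the filter, which left 1 called gene of this list without sh-*Etv5* replicate 2 or 3. *Il18* was at 4.87 ± 0.822 and 4.11 ± 0.632 RPKM (SD, n = 3, log2 fold change -0.20, limma adjusted p = 0.123).

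Of 21 genes for the maturation and release of IL-1, 16 were tested, of which 10 rose, 5 fell and 1 was not called. Among those that rose, *Nlrc4* and *Gsdme* passed the filter only through the sh-*Etv5* libraries and therefore had to differ. Without any 1 of the sh-*Etv5* libraries the list had 11 to 12 calls, against 15 in the main fit. Of all tested genes 33.3% were higher and 41.0% lower, with 74.3% called in either direction. The median log2 fold change was 0.31 over the list and -0.05 over all tested genes. The median of the list includes *Nlrc4* and *Gsdme* (0.70 and 0.73), which raise it. Among the 5 that fell, *Nlrp3*, a canonical inflammasome sensor chosen after its values were seen, was near the threshold (log2 fold change -0.10), and its call was lost when any 1 library was left out, with adjusted p-values by limma of 0.0503 to 0.130. The largest changes were those of *Casp4*, the caspase of the noncanonical inflammasome (2.31), *Ctsc*, a lysosomal peptidase (1.73), and *Capn2*, a calpain subunit (1.30). *Casp4* rose from 4.79 ± 0.685 to 27.6 ± 0.905 RPKM (SD, n = 3), with no overlap of the groups. The following genes were chosen after their values were seen. *Casp1*, which cleaves the IL-1β precursor, rose from 21.9 ± 0.168 to 43.8 ± 3.99 RPKM (SD, n = 3, log2 fold change 0.96, limma adjusted p = 4.75e-08), and *P2rx7*, the ATP-gated channel, fell from 6.83 ± 0.307 to 3.21 ± 0.216 RPKM (SD, n = 3, log2 fold change -0.90, limma adjusted p = 2.72e-07). *Pycard*, which encodes the inflammasome adaptor ASC that this line is known to lack, did not exceed 0.0504 RPKM.

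Of 31 genes that relay or restrain the IL-1 receptor signal, 30 were tested, of which 16 rose, 11 fell and 3 were not called. This again stands beside 74.3% of all tested genes called, 33.3% as higher and 41.0% as lower. The median log2 fold change was 0.15 over the list and -0.05 over all tested genes. The largest changes were those of *Nfkbiz*, *Irak3* and *Zc3h12a* (3.46, 3.45 and 2.32). *Irak3*, which encodes the inhibitory kinase IRAK-M, was at 2.08, 2.83 and 2.42 RPKM in sh-NC libraries, against 35.5, 38.2 and 35.9 RPKM in sh-*Etv5* libraries. *Zc3h12a*, which encodes an RNase that degrades cytokine messages, rose from 4.02 ± 0.356 to 24.0 ± 0.410 RPKM (SD, n = 3). The other genes named here were chosen after their values were seen, and the IRAK kinases among them went both ways. The adaptor *Myd88* and the kinase *Irak1* fell, with log2 fold changes of -0.44 and -0.89 (limma adjusted p = 8.59e-07 and 1.41e-07). The kinase genes *Irak2* and *Irak4* rose, with log2 fold changes of 0.76 and 0.33 (limma adjusted p = 5.35e-08 and 0.000309). Beside the 16 genes that rose, the others that fell were *Traf6*, *Tab1*, *Tab2*, *Map3k7*, *Ube2n*, *Ube2v1*, *Ikbkb*, *Ikbkg* and *Mapk14*. Their log2 fold changes ran from -0.58 for *Mapk14* to -0.16 for *Ube2n*.

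**Figure D5:**
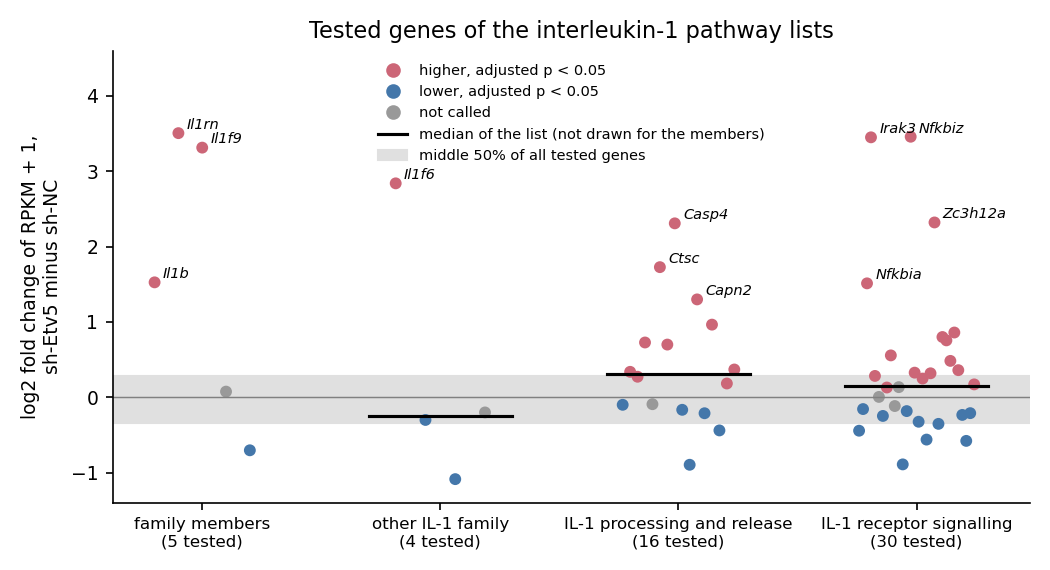
Log2 fold change of RPKM + 1 (sh-Etv5 minus sh-NC) of the tested genes among the members and in the 3 pathway lists. Red points were higher and blue points lower at a limma adjusted p-value under 0.05, grey points were not called, black lines are medians of the pathway lists, and the grey band spans the middle 50% of all tested genes. The processing and signaling lists hold genes on both sides of 0, and *Il1rn*, *Nfkbiz* and *Irak3* reach the largest values.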

How the data were processed

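The authors deposited 1 table of RPKM values for 24786 gene symbols in 6 libraries, taken from coverage tracks and not log transformed. The submitters' processing notes name the build mm10, and the aligner, the annotation and the strand setting are not given in the sources used here. Groups and replicate numbers came from the sample titles. RPKM already corrects for gene length and total reads, so strongly expressed genes that change can shift others, and neither depth nor counting error could be computed.

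Genes with at least 1 RPKM in at least 3 libraries (10738) were compared on log2(RPKM + 1) using limma 3.58.1 under R 4.3.3 (trended eBayes, two-sided, no covariate), as the study's methods name limma. The step was tested on simulated data. The fit without a filter used the 17831 genes with a value above 0. Ratios of 2 genes were compared by exact permutation tests. Python 3.11.15, NumPy 2.4.6, SciPy 1.17.1, pandas 2.3.3 and matplotlib 3.10.9 were used for the rest. Symbols were matched to GENCODE release M21 (24255 of 24786), and promoters to RefSeq (GRCm38.p6), which held all 10 members.

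The members and lists were chosen with earlier results of these data known. Named genes were all members, the 3 called genes with the largest change per list, protein-coding neighbours with a mean of at least 1 RPKM within 200 kb of family loci, the 3 genes nearest in level to the most abundant ligand, and *Etv5*. Further relatives, neighbours below 1 RPKM and markers were named outside this rule after their values were seen. So were *Casp1*, *P2rx7*, *Pycard*, *Nlrp3*, *Nlrc4*, *Gsdme*, *Myd88*, *Irak1*, *Irak2* and *Irak4*. The same holds for the remaining genes of the signaling list that fell. The neighbourhood on chromosome 2 was planned as 1 span and was read as 2, since *Il1a* and *Il1rn* lie 105 Mb apart. Alternatives tried were a replicate block, leaving out each library, quantile normalization, libraries scaled to equal sums, untrended eBayes, no filter or a mean of at least 5 RPKM, pseudocounts of 0.1 and 0.01 and, for ratios, 0.1 RPKM added to both genes.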

Additional observations from a re-analysis of the deposited data

How the results depend on the processing

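*Il1rn* and *Il1rl1* kept their direction and their call under every alternative, and the log2 fold change of *Il1rn* stayed between 3.45 and 3.59. *Il1a*, *Il1b* and *Il1f9* kept their direction under every alternative that gave a value. *Il1a* was below the filter and had no call in the main fit. The calls of *Il1b* and *Il1f9* followed from the filter, so that they were kept under the other settings adds no support. The number of members called was 2 with a mean of at least 5 RPKM, because *Il1b* and *Il1f9* fall below it, and 2 to 4 with each library left out. The 2 arose without any 1 of the sh-*Etv5* libraries, since *Il1b* and *Il1f9* then reach 1 RPKM in fewer than 3 libraries. The other IL-1 family list had 1 to 3 calls with each library left out, as *Il1f6* fails the filter in the same way and *Sigirr* lost its call without sh-*Etv5* replicate 2 or 3 and without sh-NC replicate 2. *Il1rap* turned to -0.0704 under quantile normalization. *Il18bp* turned to -0.12 under quantile normalization and to -0.0094 with the same sum, and ran from -0.0393 to 0.0654 with each library left out. The difference in log2 ratio of *Il1rn* to *Il1b* was 0.28 with 0.1 RPKM added and -0.80 to -0.0457 with each library left out, and that of *Il1a* to *Il1b* ran from -1.30 to 0.12 with each library left out. Same-numbered libraries share only a number (correlations of deviations 0.07, -0.07 and -0.04). A block on that number called 4 members and 7900 of all genes, gave *Il1rl1* a limma adjusted p of 2.98e-05, called *Il18* (0.0495) and ended the call of *Nlrp3* (0.0571), which was also lost under quantile normalization (0.144), with untrended eBayes (0.0598) and without any 1 library. *Nfkb1* lost its call with the same sum (0.158), and *Nlrp1b* and *Ube2n* lost theirs without some single libraries. Depth is unknown, so *Il33*, *Il1r1* and *Il1r2* cannot be compared.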
